A study of Mus musculus with 19 samples.

Results

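The data are transcript counts for 9 C-type lectin receptor genes, Clec4d, Clec4e, Clec4n, Clec4a1, Clec4a2, Clec4a3, Clec5a, Clec12a and Clec2d, in CD11b+ cells from mouse brain. These genes were taken as members by name, through GENCODE symbols matched to the Ensembl identifiers of the count table, and make up 9 of 56980 genes in the table. All 9 had a row and passed the filter on low counts, which left 18739 genes for testing. CD11b+ cells were isolated with magnetic beads from whole brain without olfactory bulb and cerebellum, and stranded total RNA-sequencing was done on each of 19 male mice aged 3 to 4 months. The mice were either wildtype or carried a gene-trap allele of Park7, Gt(XE726)Byg, the gene of the protein DJ-1, in all cells (PARK7/DJ-1 KO). The line was backcrossed to C57BL/6NCrl, and the wildtype mice were littermates. They were given an intraperitoneal injection of 4 µg LPS (E. coli O55:B5) per g body weight, or of PBS, and were analysed 6 h later, which gave 4 wildtype PBS mice, 5 wildtype LPS mice, 5 KO PBS mice and 5 KO LPS mice. The bead selection takes every CD11b+ cell, so that neutrophils, monocytes and border macrophages can be present beside microglia.

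C-type lectin receptors are membrane proteins with a carbohydrate-recognition-like domain, and many of them sit on myeloid cells. Clec4d (MCL), Clec4e (Mincle) and Clec4n (Dectin-2) bind microbial glycolipids or mannans and signal through the FcRγ chain, Syk and the Card9, Bcl10 and Malt1 complex towards NF-κB. Clec5a (MDL-1) signals through DAP12, whereas Clec4a2 (DCIR1) and Clec12a (MICL) carry an inhibitory motif that recruits phosphatases. Clec4a1 (DCIR4) and Clec4a3 (DCIR3) are further members of the DCIR family, and Clec2d (Clr-b, Ocil) is a ligand for the inhibitory receptor Klrb1b on natural killer cells.

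The libraries held between 11936364 and 22788884 counts, with a median of 17211939, and 3 counts corresponded to 0.139 to 0.256 CPM, the count relative to the TMM-scaled library total. Park7 was counted 262 to 533 times in the wildtype mice and 9 to 90 times in the KO mice, and its log2 fold change in KO against wildtype was -3.74 at baseline and -2.88 after LPS (adjusted p = 0.000389 and 0.00679, edgeR). The microglial markers summed to 25300 to 40600 CPM in the PBS mice and to 10600 to 17000 CPM in the LPS mice. Wildtype LPS mouse 1 and KO LPS mouse 5 lay apart from the other LPS mice on the second principal component, which held 4.04% of the variance. Summed markers of other brain cells (oligodendrocytes, astrocytes, neurons, endothelium) were highest in wildtype PBS mouse 2, wildtype LPS mouse 2, KO PBS mouse 1 and KO LPS mouse 1, at 10600, 7410, 8130 and 12100 CPM. The counts of receptor genes passing at the main thresholds for LPS against PBS, KO against wildtype and the interaction, given below, were the same without the first pair of mice and without the latter 4. The counts on the unadjusted p alone were not repeated in this way.

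All 9 receptor genes lie on chromosome 6 (GRCm39), and 6 of them stand in a stretch of 371.0 kb that runs from the start of Clec4a1 to the start of Clec4e. Clec4d (chr6:123239070-123252230, plus strand) and Clec4e (chr6:123258748-123266829, minus strand) are neighbours that point towards each other, with 6517 bases between their ends. Clec4n (chr6:123206802-123223980, plus strand) ends 15089 bases before Clec4d. Clec4a1 (chr6:122896122-122911578), Clec4a3 (chr6:122929380-122948807) and Clec4a2 (chr6:123083387-123120958) lie upstream on the plus strand. Clec2d (chr6:129157577-129163497, plus strand) and Clec12a (chr6:129319654-129342266, plus strand) are farther along the chromosome, and Clec5a (chr6:40551234-40562773, minus strand) is in another region. Clec2d overlaps the antisense lncRNA 2310001H17Rik, which had 979 counts in all 19 mice together, against 609 to 3478 counts of Clec2d in each mouse. The strand setting of the counting is not given in the sources used here, so that reads of these overlapping genes cannot be told apart with certainty. For Clec4a2, 3.12% of its windows of 75 bases were found in another gene too, most of them in Clec4a4.

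Promoter windows of 300 bases, 250 before and 50 after the RefSeq transcription start, were held by the RefSeq table (GRCm38.p6) for 8 of the 9 receptor genes, Clec4n being the exception. Each window matched GRCm39 exactly and at a single position, and coordinates are given for that match. The windows of Clec4d (chr6:123238816-123239115, plus strand), Clec4e (chr6:123266781-123267080, minus strand), Clec2d (chr6:129157328-129157627, plus strand) and Clec4a2 (chr6:123099399-123099698, plus strand) are shown because the first 3 rose with LPS and Clec4a2 was the receptor gene that fell. The RefSeq start of Clec4a2 lies inside the GENCODE gene. The same holds for Clec4a1 and Clec12a, whose windows lie wholly inside their genes and are counted below but not shown. Capitals mark matches on either strand to the C/EBP letters TTGCNNAA, the AP-1 letters TGANTCA, the ETS letters GAGGAA, the interferon-stimulated response element (ISRE) letters GAAA, 2 bases of any kind and GAAA, or the NF-κB consensus.
Clec4d: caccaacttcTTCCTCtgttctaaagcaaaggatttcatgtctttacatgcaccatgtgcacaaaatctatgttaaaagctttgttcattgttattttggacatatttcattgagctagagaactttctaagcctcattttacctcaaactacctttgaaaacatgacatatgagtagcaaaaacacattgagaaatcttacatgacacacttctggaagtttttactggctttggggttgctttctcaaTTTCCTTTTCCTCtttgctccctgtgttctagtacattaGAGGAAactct
Clec4e: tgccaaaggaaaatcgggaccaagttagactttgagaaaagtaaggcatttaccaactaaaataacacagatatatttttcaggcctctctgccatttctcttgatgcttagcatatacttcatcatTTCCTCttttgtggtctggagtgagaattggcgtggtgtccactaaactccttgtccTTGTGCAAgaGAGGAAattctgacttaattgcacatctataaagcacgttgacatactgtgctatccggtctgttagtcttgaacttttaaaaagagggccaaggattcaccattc
Clec2d: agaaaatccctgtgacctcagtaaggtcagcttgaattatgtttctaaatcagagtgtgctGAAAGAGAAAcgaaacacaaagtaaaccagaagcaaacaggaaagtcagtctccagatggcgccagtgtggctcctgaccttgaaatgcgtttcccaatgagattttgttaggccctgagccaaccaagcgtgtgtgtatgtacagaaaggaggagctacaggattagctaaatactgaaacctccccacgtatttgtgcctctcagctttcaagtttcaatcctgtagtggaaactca
Clec4a2: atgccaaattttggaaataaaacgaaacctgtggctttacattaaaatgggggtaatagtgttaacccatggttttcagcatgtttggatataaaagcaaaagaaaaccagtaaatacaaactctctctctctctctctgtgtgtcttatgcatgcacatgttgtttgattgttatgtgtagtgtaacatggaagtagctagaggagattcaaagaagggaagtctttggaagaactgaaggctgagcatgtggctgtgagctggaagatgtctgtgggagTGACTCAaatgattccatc
Clec4d had 3 ETS matches and an ISRE match that overlaps the second of them, so that both form a single run of capitals. Clec4e had a C/EBP match, TTGTGCAA, 66 to 59 bases before the start and 2 ETS matches. Clec2d had an ISRE match, GAAAGAGAAA, and Clec4a2 had an AP-1 match, TGACTCA, after the start. ETS letters were found in 6 of the 8 receptor genes with a window and in 28.3% of all 32851 windows of this length. These counts are per gene and the percentages per window, and Clec4a3 had 2 windows, of which 1 held ETS letters. ISRE letters were found in 2 of 8 and in 3.44% of all windows, C/EBP letters in 2 of 8 and in 10.8%, and AP-1 letters in 2 of 8 and in 7.81%. No window of these genes held the NF-κB consensus, which 4.51% of all windows held. These are matches of letters, and binding was not measured.

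First, the levels in PBS mice were compared between the genes, as CPM per kb of the canonical transcript. Clec2d had the highest level in wildtype PBS mice, at 33.8 CPM per kb, followed by Clec5a at 16.4, Clec4a3 at 15.7 and Clec4a2 at 14.1 CPM per kb. The ranges of Clec5a, Clec4a3 and Clec4a2 overlapped between neighbours in this order. Clec4a1 at 8.57 and Clec4n at 6.58 CPM per kb overlapped with each other, and Clec12a stood at 2.16 CPM per kb. Clec4e and Clec4d had the lowest levels, at 1.21 and 0.677 CPM per kb, and their ranges overlapped. In KO PBS mice the order was the same, from 30.2 CPM per kb for Clec2d, whose range there overlapped with that of Clec5a, to 0.825 CPM per kb for Clec4d. Over the union of all annotated exons in place of the canonical transcript, Clec4a1 (4.99 CPM per kb) came after Clec4n (5.76 CPM per kb) in wildtype PBS mice, and the level of Clec4e was 0.614 CPM per kb.

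Next, the effect of systemic LPS was examined in wildtype and in KO mice. In wildtype mice 5 of the 9 receptor genes rose (Clec4d, Clec4e, Clec4a1, Clec5a and Clec2d) and 1 fell (Clec4a2), by edgeR's quasi-likelihood test at an adjusted p under 0.05 and a log2 fold change of at least 0.5. Of all genes tested, 18.4% rose and 17.4% fell in this comparison. In KO mice 6 rose, the same 5 and Clec4n, and Clec4a2 fell, against 20.1% and 19% of all genes. The median log2 fold change of the 9 genes was 1.62 in wildtype and 1.69 in KO mice, and over all genes tested it was -0.063 and -0.01. LPS and PBS mice did not overlap in CPM for 6 of the 9 genes in each genotype, compared with 37.8% of all genes in wildtype and 32.8% in KO mice.

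**Figure D1:**
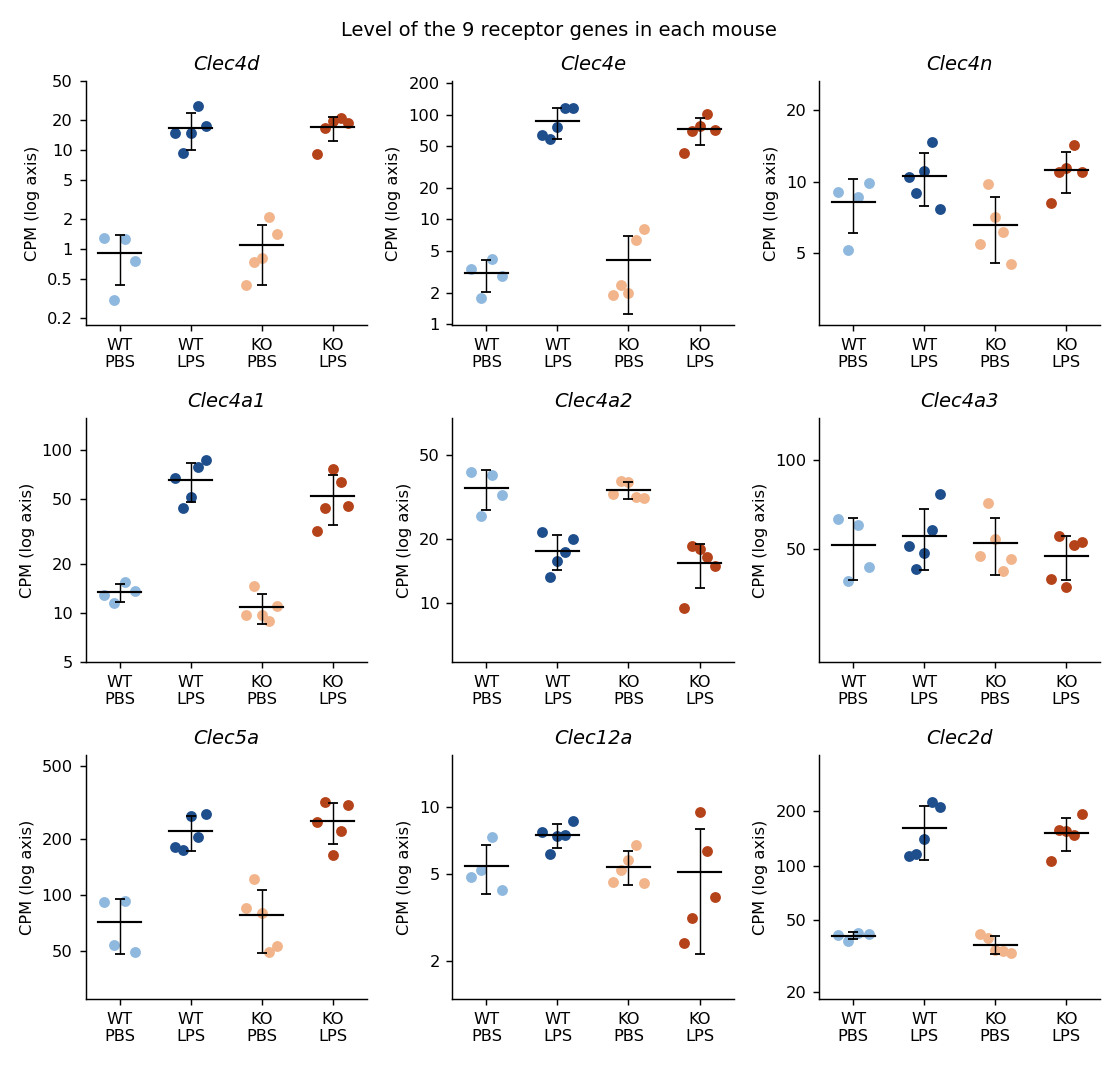
CPM of the 9 receptor genes in each of the 19 mice on log axes, by genotype and treatment. Points are mice, horizontal lines are group means and error bars are the SD. LPS and PBS mice are apart for Clec4d, Clec4e, Clec4a1, Clec4a2, Clec5a and Clec2d in both genotypes, and overlap for Clec4n, Clec4a3 and Clec12a.

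Clec4e, the receptor for mycobacterial cord factor, rose the most among the receptor genes. In wildtype mice its level was 3.39, 1.76, 4.2 and 2.86 CPM in the PBS mice and 64.6, 58.8, 76.8, 117 and 117 CPM in the LPS mice. In KO mice it was 1.9, 2.36, 1.98, 6.34 and 8.05 CPM after PBS and 42.9, 70.1, 77.8, 102 and 71.8 CPM after LPS. The lowest LPS mouse was thus far above the highest PBS mouse in each genotype, and KO PBS mice 4 and 5 were higher than the other KO PBS mice. The log2 fold change of Clec4e was 4.83 (SE 0.467, adjusted p = 1.46e-07, edgeR) in wildtype and 4.14 (SE 0.407, adjusted p = 1.32e-07) in KO mice. Clec4d, which pairs with Clec4e at the cell surface, had 1.3, 0.303, 1.25 and 0.745 CPM in wildtype PBS mice and 14.8, 9.4, 15, 27.9 and 17.4 CPM in wildtype LPS mice. In KO mice Clec4d had 0.43, 0.739, 0.813, 2.1 and 1.4 CPM after PBS and 9.17, 16.9, 19.6, 21.3 and 18.7 CPM after LPS. Here, too, the groups were apart, while the PBS values rested on 5 to 40 counts per mouse. The log2 fold change of Clec4d was 4.21 (SE 0.478, adjusted p = 9.76e-07, edgeR) in wildtype and 3.95 (SE 0.424, adjusted p = 3.86e-07) in KO mice.

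Clec4n, the third receptor of this group and a receptor for fungal mannans, passed the test in KO and not in wildtype mice. It had 9.07, 5.15, 8.61 and 9.87 CPM in wildtype PBS mice and 10.4, 8.94, 11.1, 14.7 and 7.67 CPM in wildtype LPS mice. In KO mice Clec4n had 5.46, 9.79, 7.06, 6.13 and 4.48 CPM after PBS and 8.1, 11, 11.4, 14.2 and 11 CPM after LPS. PBS and LPS mice overlapped in both genotypes. The log2 fold change was 0.37 (SE 0.248, adjusted p = 0.255, edgeR) in wildtype and 0.76 (SE 0.233, adjusted p = 0.0121) in KO mice. The difference of these 2 values, tested as an interaction, was 0.38 (SE 0.338, unadjusted p = 0.269 and adjusted p = 1, edgeR), so that the response of Clec4n was not shown to differ between genotypes.

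The 3 DCIR genes of the Clec4a family moved apart. Clec4a1 rose from 12.8, 11.5, 15.5 and 13.7 CPM in wildtype PBS mice to 67.6, 44.3, 51.5, 78.5 and 87.2 CPM in wildtype LPS mice. In KO mice it rose from 9.76, 14.7, 9.65, 8.96 and 11 CPM to 31.9, 44.2, 77, 64 and 45.2 CPM. All LPS mice were above all PBS mice, with log2 fold changes of 2.3 (SE 0.252, adjusted p = 6.3e-07, edgeR) in wildtype and 2.28 (SE 0.231, adjusted p = 2e-07) in KO mice. Clec4a2, the receptor with the inhibitory motif, fell from 41.4, 25.7, 40.4 and 32.4 CPM to 21.7, 13.3, 15.8, 17.4 and 20.1 CPM in wildtype mice. In KO mice it fell from 32.8, 37.8, 37.3, 31.5 and 31.2 CPM to 9.45, 18.5, 17.9, 16.4 and 15 CPM. Again no LPS mouse reached the PBS mice, and the log2 fold change of Clec4a2 was -0.98 (SE 0.187, adjusted p = 0.000278, edgeR) in wildtype and -1.14 (SE 0.179, adjusted p = 3.09e-05) in KO mice. Clec4a3 ranged from 39.1 to 63.1 CPM in wildtype PBS mice and from 43 to 76.9 CPM in wildtype LPS mice, and from 42.3 to 71.6 and from 37.5 to 55.4 CPM in the KO mice. Its log2 fold change was 0.11 (SE 0.194, adjusted p = 0.705, edgeR) in wildtype and -0.14 (SE 0.183, adjusted p = 0.563) in KO mice. The ratio of Clec4a1 to Clec4a2 in CPM per kb was 0.621 ± 0.0955 (SD, n = 4) in wildtype PBS mice and 5.91 ± 1.06 (SD, n = 5) in wildtype LPS mice. In KO mice this ratio was 0.505 ± 0.0852 (SD, n = 5) after PBS and 5.42 ± 1.19 (SD, n = 5) after LPS, and Clec4a1 was the lower of both genes in every PBS mouse and the higher in every LPS mouse.

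**Figure D2:**
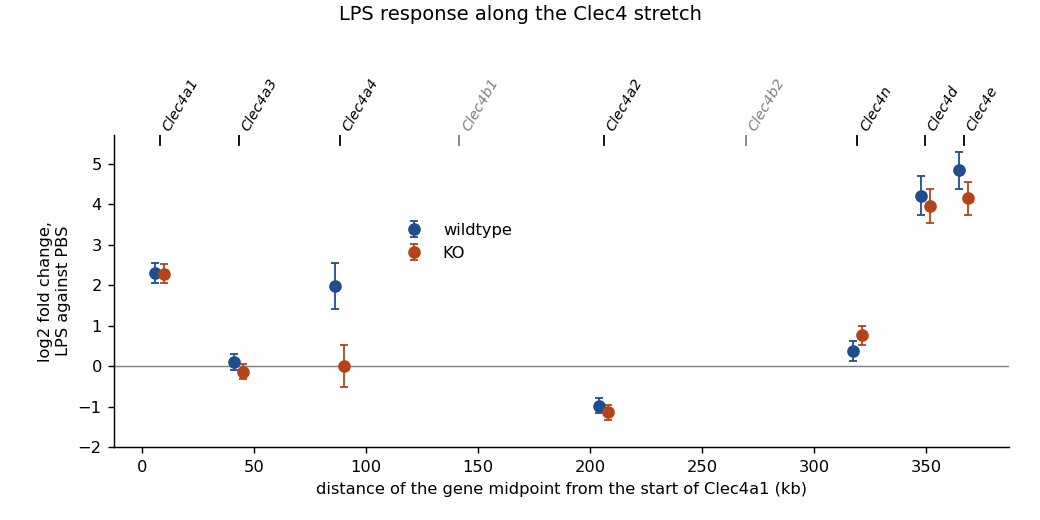
Log2 fold change, LPS against PBS, of the tested genes in the Clec4 stretch of chromosome 6 against the distance of each gene's midpoint from the start of Clec4a1 in kb; points are estimates in wildtype and KO mice, error bars are the SE, and names in grey are genes that did not pass the filter on low counts. Clec4d and Clec4e at the far end had log2 fold changes of 3.95 to 4.83, and Clec4a2 in between lay below 0 in both genotypes.

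Genes of the Clec4 stretch thus differed in direction. Clec4b1 and Clec4b2, which flank Clec4a2, were not tested. The stretch holds 9 protein-coding genes, of which 7 were tested, and Clec4b1 and Clec4b2 had only 91 and 10 counts in all mice together. Clec4a4, which is not among the 9 genes and shares windows with Clec4a2, had 2 to 21 counts in each wildtype mouse. Its log2 fold change with LPS was 1.99 (SE 0.567, adjusted p = 0.00792, edgeR) in wildtype and 0 (SE 0.515, adjusted p = 0.998) in KO mice. The interaction of Clec4a4 was -1.99 (SE 0.745, unadjusted p = 0.0154 and adjusted p = 1, edgeR), so that its response was not shown to differ between genotypes.

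Clec5a, a receptor for flaviviruses that signals through DAP12, had 92.2, 53.4, 92.6 and 49.1 CPM in wildtype PBS mice and 183, 175, 267, 206 and 276 CPM in wildtype LPS mice. In KO mice Clec5a had 85.4, 122, 79.7, 49.3 and 53.3 CPM after PBS and 249, 317, 165, 222 and 307 CPM after LPS. The PBS mice fell into a lower and a higher range in each genotype, and all of them were below the LPS mice. The log2 fold change of Clec5a was 1.62 (SE 0.278, adjusted p = 0.000102, edgeR) in wildtype and 1.69 (SE 0.258, adjusted p = 2.29e-05) in KO mice. Clec2d had 41.5, 38.3, 42.4 and 42 CPM in wildtype PBS mice, the smallest spread of the receptor genes (coefficient of variation 4.56%), and 113, 116, 140, 226 and 210 CPM in wildtype LPS mice. In KO mice Clec2d had 42.1, 40, 34.3, 34 and 32.9 CPM after PBS and 106, 157, 156, 148 and 193 CPM after LPS. No LPS mouse overlapped with a PBS mouse. The log2 fold change of Clec2d was 1.97 (SE 0.204, adjusted p = 3.3e-07, edgeR) in wildtype and 2.05 (SE 0.189, adjusted p = 5.75e-08) in KO mice. Klrb1b, the receptor that binds Clec2d, had a log2 fold change of 1.16 (SE 0.304, adjusted p = 0.00452) in wildtype and 1.46 (SE 0.279, adjusted p = 0.000245) in KO mice, and it was picked for its link to Clec2d after its values were seen. These values rested on few counts, 12 to 20 in wildtype PBS and 23 to 42 in wildtype LPS mice, and 11 to 33 and 35 to 62 in KO mice.

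Clec12a, an inhibitory receptor that recognises uric acid crystals, passed the test in neither genotype. It had 4.85, 5.21, 7.36 and 4.22 CPM in wildtype PBS mice and 7.69, 6.12, 7.41, 7.48 and 8.7 CPM in wildtype LPS mice. In KO mice Clec12a had 4.6, 5.22, 5.79, 6.76 and 4.54 CPM after PBS and 2.42, 3.14, 9.57, 6.32 and 3.9 CPM after LPS. The KO LPS mice thus spread both below and above all KO PBS mice, with a coefficient of variation of 57.4%, compared with 12.3% in the wildtype LPS mice. The log2 fold change of Clec12a with LPS was 0.47 (SE 0.31, adjusted p = 0.252, edgeR) in wildtype and -0.09 (SE 0.29, adjusted p = 0.843) in KO mice.

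**Figure D3:**
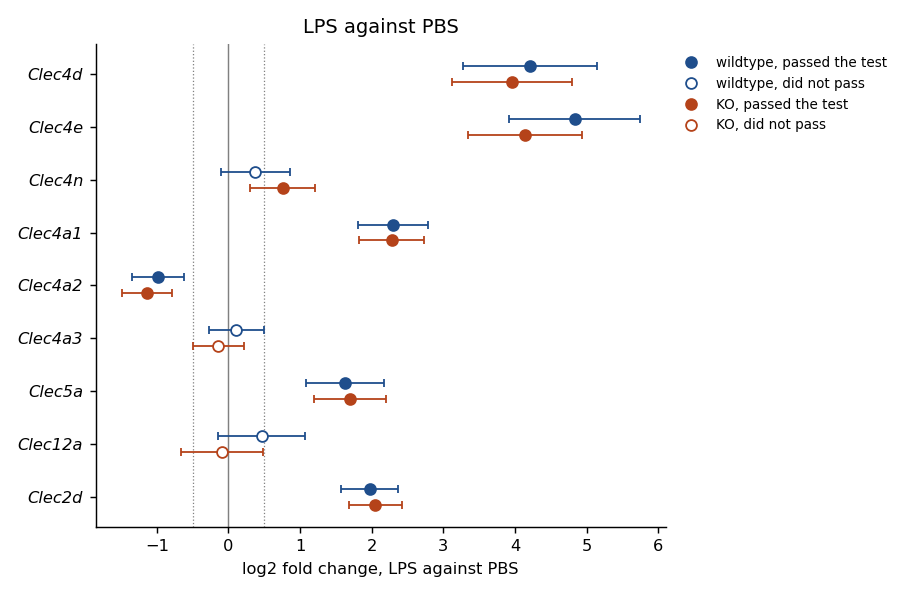
Log2 fold change, LPS against PBS, of the 9 receptor genes in wildtype and KO mice from the edgeR fit. Bars reach 1.96 SE to each side, filled points passed the test and dotted lines mark 0.5 in either direction. Estimates run from -1.14 for Clec4a2 in KO mice to 4.83 for Clec4e in wildtype mice.

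Summed over the 9 genes, the level was 99.2 ± 15.6 CPM per kb (SD, n = 4) in wildtype PBS mice and 308 ± 79.3 CPM per kb (SD, n = 5) in wildtype LPS mice, and 94.6 ± 14.8 and 290 ± 46.1 CPM per kb (SD, n = 5) in the KO mice. The make-up of this sum changed as well. Clec4d and Clec4e together held 1.85% ± 0.502 (SD, n = 4) of it in wildtype PBS mice and 15.1% ± 1.33 (SD, n = 5) in wildtype LPS mice. In KO mice their share was 2.8% ± 2.07 after PBS and 14.3% ± 2.8 after LPS (SD, n = 5). The share of the 3 DCIR genes in this larger sum went from 38.5% ± 1.37 to 21.7% ± 3.21 in wildtype and from 38.8% ± 2.11 to 18.8% ± 3.17 in KO mice. Among them the share of Clec4a1 went the other way, from 8.71% ± 0.924 to 13.8% ± 2.16 in wildtype mice, with levels of 8.57 and 42.3 CPM per kb. The share of Clec4a3 went from 15.7% ± 1.37 to 5.56% ± 0.682 in wildtype mice at levels of 15.7 and 16.9 CPM per kb, and that of Clec4a2 from 14.1% ± 0.912 to 2.4% ± 0.648 at levels of 14.1 and 7.12 CPM per kb. Clec2d had the highest mean of the 9 in each group, with 133 CPM per kb in wildtype LPS mice and 125 CPM per kb in KO LPS mice, followed by Clec5a at 50.5 and 57.6 CPM per kb. In the wildtype LPS mice Clec4a1 at 42.3 and Clec4e at 34.5 CPM per kb came next, each overlapping with its neighbours in the order, and Clec12a was the lowest at 2.99 CPM per kb. Over the union of all annotated exons the order of these means was the same, with 24.7 CPM per kb for Clec4a1 and 17.5 CPM per kb for Clec4e, next to Clec4a3 at 16.3 CPM per kb.

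**Figure D4:**
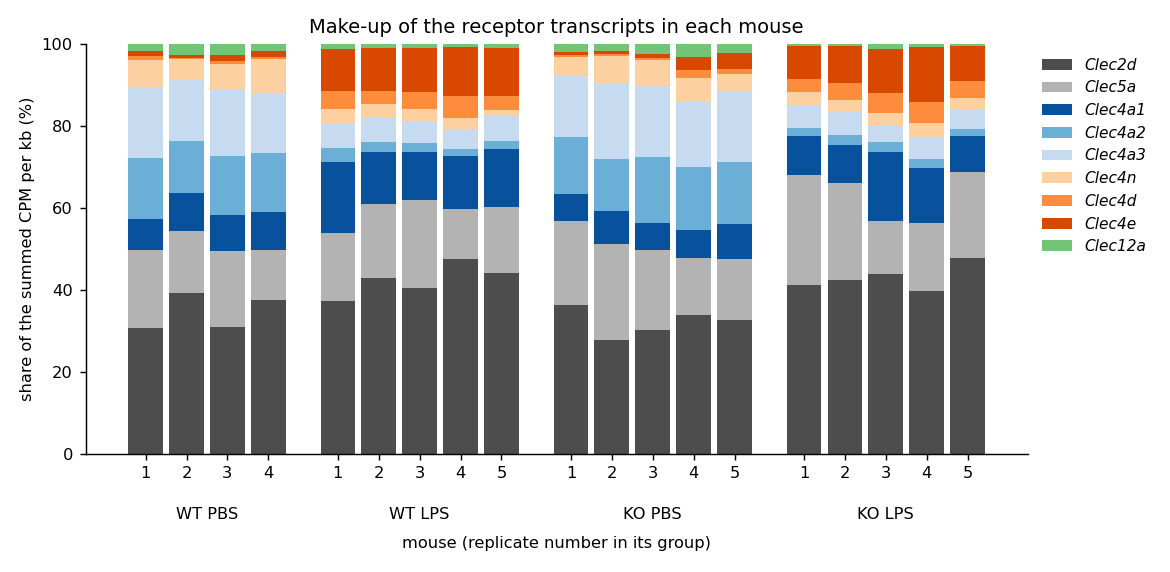
Share of each receptor gene in the summed CPM per kb of the 9 genes, in percent, with 1 bar per mouse. Orange shades are Clec4n, Clec4d and Clec4e, and blue shades are the 3 DCIR genes. The Clec4d and Clec4e segments are wider and the Clec4a2 and Clec4a3 segments narrower in all LPS mice than in all PBS mice.

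Markers of other cells moved with LPS beside these genes. Of the 8 monocyte markers 7 were tested and all 7 rose, and the summed level of the 8 was 40.1 to 57.3 CPM in wildtype PBS mice and 356 to 640 CPM in wildtype LPS mice, and 30.8 to 72.1 and 225 to 601 CPM in KO mice. Of the 14 neutrophil markers 7 rose in wildtype mice, and 8 rose and 1 fell in KO mice, and their summed level went from 81.2 to 155 CPM to 276 to 692 CPM in wildtype and from 35.2 to 280 CPM to 191 to 682 CPM in KO mice. All 9 microglial markers measured fell in both genotypes, and of the 10 border macrophage markers 6 fell and 1 rose in each. No monocyte, neutrophil, microglial or border macrophage marker was at 0 throughout a group. The 7 dendritic cell markers summed to 39.4 to 48.2 CPM in wildtype PBS and 40.4 to 225 CPM in wildtype LPS mice, and to 36.6 to 46.7 and 48.8 to 188 CPM in KO mice. Of the 5 dendritic cell markers tested, 1 rose and 3 fell in wildtype mice, and 1 rose and 2 fell in KO mice. The higher sums in LPS mice rested mainly on Ccr7, singled out after its values were seen. Its mean was 0.526 CPM in wildtype PBS and 72.3 CPM in wildtype LPS mice, and 0.461 and 63.0 CPM in KO mice. The lymphocyte marker Cd3d, singled out after its values were seen, was at 0 in every KO PBS mouse. In bulk samples, more cells of a type and more RNA per cell cannot be told apart, and the part of these markers in the values of the receptor genes was not tested. In KO PBS mice 1 to 5, the summed monocyte markers were 30.8, 44.8, 31.6, 72.1 and 41.5 CPM and the summed neutrophil markers 57.2, 105, 35.2, 280 and 126 CPM. Mouse 4 was highest in both sums and in Clec4d (2.1 CPM) and second in Clec4e (6.34 CPM), and mouse 5 was highest in Clec4e (8.05 CPM) and second in the neutrophil sum, with a monocyte sum below those of mice 2 and 4.

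KO and wildtype mice were compared next, at an unadjusted p under 0.05 and a log2 fold change of at least 0.5, the thresholds the study used for this comparison. After LPS 0 of the 9 receptor genes passed, against 1.31% of all genes, and at PBS baseline 0 of 9 passed as well, against 0.800% of all genes. On the unadjusted p alone, without the fold threshold, 0 of the 9 passed in either condition, where 482 of all 18739 genes passed after LPS and 195 at baseline. No receptor gene was without overlap between KO and wildtype mice in either condition, compared with 0.219% of all genes after LPS and 0.971% at baseline. The median log2 fold change of the 9 genes was -0.19 after LPS and -0.01 at baseline, and all adjusted p-values (edgeR) were 1. The test of the interaction, which asks whether the response to LPS differed between genotypes, called 0 of 9 genes at an adjusted p under 0.05, where it called 0 of all genes tested. At an unadjusted p under 0.05 the interaction also held 0 of the 9 and 180 of all genes. DESeq2 called 0 of the 9 in each of these 3 comparisons too.

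After LPS, the estimates of Clec4d (log2 fold change 0.02, SE 0.365), Clec4e (-0.25, SE 0.352), Clec4n (0.07, SE 0.231) and Clec5a (0.19, SE 0.251) in KO against wildtype mice were all smaller than their SE. These intervals, at 1.96 SE to each side, were -0.69 to 0.73 for Clec4d, -0.94 to 0.44 for Clec4e, -0.38 to 0.53 for Clec4n and -0.3 to 0.68 for Clec5a, so that each of the 4 held a difference of 0.5 in at least 1 direction. For Clec2d the log2 fold change was -0.08 (SE 0.181) with an interval of -0.44 to 0.27, which leaves out 0.5 in either direction. Clec4a1 (-0.33, SE 0.219), Clec4a2 (-0.19, SE 0.178) and Clec4a3 (-0.23, SE 0.183) had estimates below 0, with unadjusted p between 0.153 and 0.287 in the edgeR fit. At baseline the estimates ran from -0.31 (SE 0.246) for Clec4n to 0.43 (SE 0.418) for Clec4e. The interaction of Clec4e, at -0.69 (SE 0.546, unadjusted p = 0.224, edgeR), was the farthest from 0 among the 9.

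**Figure D5:**
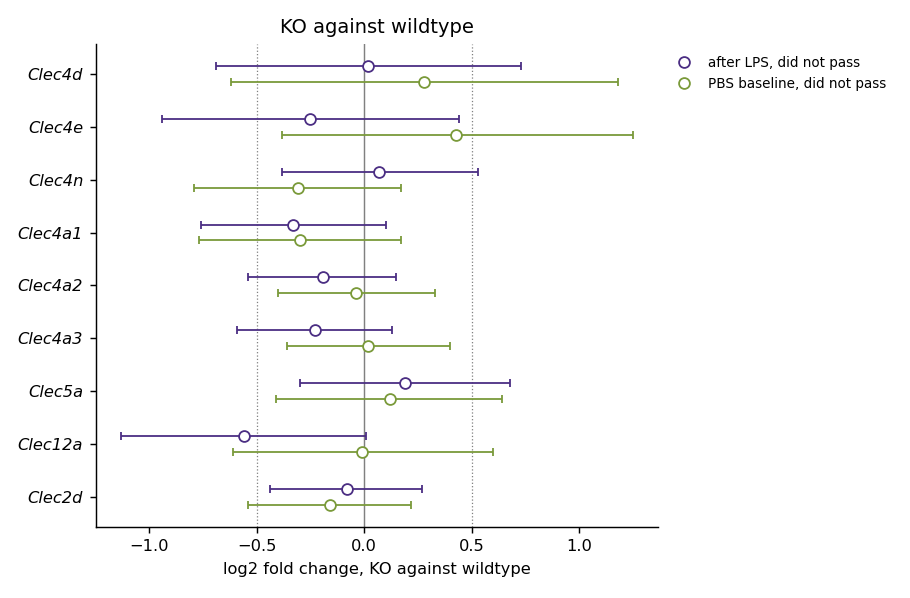
Log2 fold change, KO against wildtype, of the 9 receptor genes after LPS and at PBS baseline from the edgeR fit, with bars of 1.96 SE to each side and dotted lines at 0.5 in either direction. All points are open, since no gene passed the test, and the estimate of Clec12a after LPS lies farthest from 0 at -0.56.

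Clec12a came closest to the threshold after LPS, with a log2 fold change of -0.56 in KO against wildtype mice (SE 0.291, unadjusted p = 0.0701 and adjusted p = 1, edgeR). It had 129, 93, 123, 115 and 102 counts in the wildtype LPS mice and 43, 55, 160, 113 and 54 counts in the KO LPS mice. KO LPS mice 1, 2 and 5 were below all wildtype LPS mice, and mouse 3 was above all of them in CPM. Without KO LPS mouse 3 the log2 fold change of Clec12a was -0.92 (unadjusted p = 0.00189, edgeR) and that of Clec4a1 was -0.51 (unadjusted p = 0.03). Thus 2 of 9 receptor genes passed in place of 0, with an adjusted p of 1 for each. The share of all genes passing in that fit was not counted, so that these 2 calls cannot be set against it. Over the 28 alternatives the log2 fold change of Clec12a ran from -0.92 to -0.37 and its adjusted p from 0.967 to 1. The unadjusted p, by edgeR or DESeq2, ran from 0.00189 to 0.195, on both sides of the threshold. The summed monocyte markers of the KO LPS mice were 225, 278, 601, 492 and 303 CPM in the same order of mice, and those of the wildtype LPS mice were 479, 356, 472, 640 and 609 CPM. Mice 3 and 4 were the highest of the KO LPS mice in both measures, and the part of the monocyte markers in this difference was not tested.

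Pairs of receptor genes were then compared across mice of the same condition. Over the 10 LPS mice, with the mean of each genotype removed, Pearson r in log2 CPM ran from -0.51 to 0.894 over the 36 pairs of receptor genes. Of these pairs 32 had r above 0, and 2 passed an adjusted p under 0.05 by a permutation test within genotype. Clec4d and Clec4e had r = 0.894 (two-sided permutation p = 8e-05, adjusted p = 0.00288, n = 10) and Spearman's rho = 0.952 (permutation p = 8e-05, adjusted p = 0.00252). The r of Clec4d and Clec4e was 0.752 without the 2 mice farthest from the median of Clec4d, 0.843 within the 5 wildtype mice and 0.957 within the 5 KO mice. Clec4a1 and Clec12a had r = 0.861 (two-sided permutation p = 0.00017, adjusted p = 0.00306, n = 10) and rho = 0.915 (permutation p = 0.00014, adjusted p = 0.00252). The r of Clec4a1 and Clec12a was 0.735 without the 2 mice farthest from the median of Clec4a1, 0.865 within the wildtype mice and 0.982 within the KO mice. The lowest r was -0.51 for Clec5a and Clec12a (permutation p = 0.224, adjusted p = 0.367, n = 10), with 0.681 within wildtype and -0.795 within KO mice.

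Over all 19 mice, the genes whose log2 CPM was most like that of each receptor gene were listed by Pearson r, as a description in which PBS and LPS mice form separate clusters. Clec4d was most like Clec4e itself (r = 0.989) and Lilrb4b (0.987), and Clec4e most like Acod1 (0.995), the enzyme that makes itaconate. Clec4a1 was most like Pirb (0.989), an inhibitory immunoglobulin-like receptor, and Phf11d (0.987), and Clec2d most like Pstpip2 (0.992) and Cd14 (0.99), the co-receptor for LPS. Clec5a was most like Eaf1 (0.986) and Ipo5 (0.983), and Clec4a2, which fell, was most like Dock11 (0.978) and Dock10 (0.972). For the genes with less change, the closest genes were Tsen15 (0.846) and Pex13 (0.844) for Clec4n, Itga4 (0.839) and Plbd1 (0.828) for Clec12a, and Grk2 (0.811) and Gtf2e2 (0.8) for Clec4a3.

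Finally, the signalling partners and the other C-type lectin genes were examined. Of 13 signalling genes, all tested, 5 rose and 1 fell with LPS in wildtype mice, and 4 rose and 1 fell in KO mice, with a median log2 fold change of 0.02 and 0.09. The count of 5 was 3 without wildtype PBS mouse 4. Fcer1g, the FcRγ chain used by Clec4d, Clec4e and Clec4n, rose by a log2 fold change of 0.91 (SE 0.18, adjusted p = 0.000396, edgeR) in wildtype and 0.83 (SE 0.167, adjusted p = 0.00041) in KO mice. Vav1, a guanine nucleotide exchange factor, rose by 0.87 (SE 0.143) and 0.96 (SE 0.134), and Malt1 rose by 1.75 (SE 0.41) and 1.87 (SE 0.38). Inpp5d, the phosphatase SHIP-1, had a log2 fold change of -0.63 (SE 0.186, adjusted p = 0.00958, edgeR) in wildtype and -0.69 (SE 0.177, adjusted p = 0.00333) in KO mice. Tyrobp, the DAP12 adaptor of Clec5a, had -0.45 (SE 0.204, adjusted p = 0.0875) and -0.36 (SE 0.193, adjusted p = 0.137), and it was singled out for its role after its values were seen. None of the 13 passed in KO against wildtype mice after LPS or at baseline.

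Of 41 other C-type lectin genes, 27 were tested, and 7 rose and 12 fell in wildtype mice, while 7 rose and 11 fell in KO mice, with a median log2 fold change of -0.41 and -0.16. Cd69, an activation marker of leukocytes, had a log2 fold change of 5.27 (SE 0.619, adjusted p = 1.48e-06, edgeR) in wildtype mice, Cd72 of 2.75 (SE 0.42, adjusted p = 2.97e-05) and Olr1, the receptor for oxidised lipoprotein, of 1.85 (SE 0.356, adjusted p = 0.000319). The macrophage lectins Mgl2 (-2.55, SE 0.2, adjusted p = 1.41e-08, edgeR), Cd209g (-5.35, SE 0.589, adjusted p = 6.89e-07) and Cd209f (-2.91, SE 0.428, adjusted p = 1.91e-05) were the 3 lower genes with the smallest p. In KO against wildtype mice 1 of the 27 passed after LPS, Cd209g (1.84, SE 0.651, unadjusted p = 0.0112 and adjusted p = 1, edgeR), on 0 to 4 counts in wildtype and 2 to 11 counts in KO LPS mice. At baseline 1 passed, Clec4a4 (1.25, SE 0.57, unadjusted p = 0.0413 and adjusted p = 1, edgeR), on 2 to 6 counts in wildtype and 3 to 16 counts in KO PBS mice.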

How the data were processed

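RNA-sequencing of CD11b+ brain cells of 19 mice gave a deposited table of raw read counts per gene. The authors trimmed reads with Cutadapt (0.17.4 in the submitters' processing notes) and aligned them with STAR 2.7.9a to GRCm39 with Ensembl 108, and the strand setting of the counting is not given in the sources used here. The 19 libraries held 11936364 to 22788884 counts, which limits the precision of low genes, and 56236 of 56980 genes were named with GENCODE M39.

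Counts were tested in R 4.3.3 with edgeR 4.0.16 (TMM, filterByExpr with a minimum count of 10, glmQLFit and glmQLFTest) in a single fit of 4 groups with Benjamini-Hochberg adjustment over 18739 genes. SE is the log2 fold change divided by the square root of F. CPM used TMM-scaled totals, and log2 CPM a prior count of 2. Correlations used 100000 permutations within genotype. DESeq2 1.42.0, other filters and scalings, a replicate block and omission of mice were tried as alternatives, and the fit was tested on simulated data. No library was a repeat of another: over 36 pairs of mice of the same group, the lowest chi-square per degree of freedom was 6.5. Same-numbered mice did not deviate together in every pair, so that no pairing was used.

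The 9 members, the lists and the tests were chosen with earlier results of these data known. The genes named are all members, the 3 genes with the smallest p per direction of the other C-type lectin and signalling lists in wildtype mice, genes of these lists that passed in KO against wildtype mice, and the 2 genes most like each member (for Clec4e 1 of these is not reported here), marker lists are given by counts and summed levels, and other genes are stated as singled out.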

Additional observations from a re-analysis of the deposited data

How the results depend on the processing

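The counts of receptor genes that rose with LPS were 5 in wildtype and 6 in KO mice under all alternatives tried, except 4 and 5 with at least 10 counts required in every sample, where Clec4d was not tested, and 5 in KO mice with a log2 threshold of 1. With that threshold 0 receptor genes fell in wildtype mice, which was otherwise 1. It left 1 signalling gene higher and 0 lower in each genotype. With at least 10 counts required in every sample, which leaves fewer genes to test, 3 other C-type lectin genes rose and 5 fell in wildtype mice, 4 rose and 4 fell in KO mice, and 2 signalling genes fell in wildtype mice. Leaving out each mouse in turn gave 3 to 5 signalling genes higher in wildtype mice and 0 to 2 receptor genes lower in KO against wildtype mice after LPS. The count of 3 came without wildtype PBS mouse 4, and the share of all genes passing in these fits was not counted. The count of these signalling genes was 4 without a low-count filter, with the stricter filter, with DESeq2 size factors, in the fit of 2 groups, with the replicate block and with the animal number. With the replicate block, 1 receptor gene was lower in KO mice after LPS, Clec12a (-0.68, unadjusted p = 0.0225), and no other count of receptor genes changed. The mean correlation of same-numbered mice was 0.325 between PBS and LPS in wildtype mice (lowest -0.0418), 0.254 in KO mice (lowest 0.0265), -0.102 between genotypes after LPS (lowest -0.573) and -0.00595 at baseline (lowest -0.29), so that the numbers were not taken to pair the mice, and the cause of the changed call was not tested.

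Small values changed sign. In KO against wildtype mice after LPS, Clec4d was -0.05 with the animal number as a covariate and -0.06 without wildtype LPS mouse 1 and KO LPS mouse 5. At baseline Clec4a3 was -0.01 without a low-count filter, with the stricter filter and with the animal number, -0.02 with the replicate block and -0.09 without the 4 mice with the highest markers of other brain cells. Without those 4 mice Clec5a was -0.07 and Clec12a 0 at baseline, and Clec12a was 0.06 with LPS in KO mice. Clec12a at baseline was also 0 in the fit of 2 groups and with the animal number, and 0.02 with the replicate block. The interaction was 0.05 for Clec4a1 and 0.03 for Clec4a2 without the 4 mice, and 0.03 for Clec4a1, -0.07 for Clec5a and -0.13 for Clec2d without the pair of mice. Both omissions were chosen after the data were seen.

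With each mouse left out in turn, the following ranges included a change of sign. For LPS against PBS they were -0.04 to 0.22 for Clec4a3 in wildtype and -0.45 to 0.11 for Clec12a in KO mice. After LPS, KO against wildtype gave -0.13 to 0.28 for Clec4d, -0.03 to 0.22 for Clec4n and -0.19 to 0.07 for Clec2d. At baseline it gave -0.09 to 0.53 for Clec4d, -0.15 to 0.06 for Clec4a2, -0.12 to 0.14 for Clec4a3, -0.1 to 0.26 for Clec5a and -0.1 to 0.18 for Clec12a. The interaction gave -0.51 to 0.11 for Clec4d, -0.2 to 0.11 for Clec4a1, -0.07 to 0.29 for Clec5a and -0.03 to 0.23 for Clec2d.

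Depth limits Clec4d at baseline, with 5 to 40 counts per mouse, and Clec12a. Labels name the samples as separate mice, and cell types cannot be separated in bulk counts.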
